A study of Homo sapiens with 4 samples.

Results

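The 9 genes described here, FAS, TNFRSF10B, BBC3, BAX, ZMAT3, TP53INP1, XPC, DDB2 and RRM2B, are known transcriptional targets of p53 that act in cell death, DNA repair and nucleotide supply. Their HuR peaks were taken as every line of the deposited peak lists that overlapped a gene's hg19 limits by at least 1 bp, which gave 32 of 36216 peaks at 5 Gy and 37 of 47930 peaks at 0 Gy. Measured values had no part in fixing the limits. The loci ran from 6939 bp (BAX) to 54646 bp (ZMAT3) and came to 262.8 kb in all.

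RNA bound to HuR was recovered by immunoprecipitation and sequenced (RIP-seq) from WS1, a human skin fibroblast line. The cells had been given 5 Gy of X-rays or no irradiation (0 Gy), and each dose had 1 HuR library and 1 library made with control immunoglobulin (IgG), all from the same line. The time between irradiation and lysis is not given in the labels, and the labels name no further treatment or genotype. Each peak list was called on the HuR library with the IgG library of the same dose as background, so there is 1 list per dose, no replicate and no test between the doses. A difference between the lists below compares these libraries, and in bulk RNA a larger amount of a transcript and more HuR on each copy of it cannot be told apart.

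p53 is a transcription factor that is stabilised after DNA damage and switches on genes of cell cycle arrest, death and repair. HuR, the product of ELAVL1, is a mostly nuclear protein that binds U-rich and AU-rich stretches in introns and 3′ untranslated regions and is known for stabilising mRNAs. Targets of p53 with such stretches can therefore be handled at 2 levels, by transcription and by RNA binding.

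The genes share p53 as a regulator, so their start regions were searched for the p53 consensus, which consists of 2 half-sites of 10 bases each. RefSeq windows of 250 bases before to 50 bases after each start (build GRCh38.p14) were at hand for 6 of the 9 genes (XPC, ZMAT3, FAS, DDB2, BBC3 and BAX), in 10 windows. The consensus is the same on both strands, and up to 13 bases were allowed between the half-sites. DDB2 held an exact match, which 10 of all 35116 windows did (0.0285%), at chr11:47214979-47214999 on the plus strand, inside the first transcribed bases. FAS held a single exact half-site in 1 of its 3 windows, at positions -122 to -113 relative to that start, and 6.63% of all windows held at least 1 exact half-site. The 10 bases that directly follow the FAS half-site had 2 mismatches to a half-site. They were past the limit of 1 mismatch per half-site used below, so this search does not show that FAS lacks a full site there. With up to 1 mismatch allowed in each half-site, 2 of the 10 windows (1 of DDB2 and 1 of FAS) had a match, as did 5.25% of all windows. The DDB2 site and the FAS half-site, on chr10:88991303-88991332 with its surrounding bases, are shown because they are the exact matches among the members, with half-sites in capitals.
DDB2: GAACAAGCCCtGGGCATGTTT
FAS: actcctGGACAAGCCCtgacaagccaagcc
These letters are DNA of the start regions. The peak lists are in another build, and no peak was placed on these windows.

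Peaks were found at 8 of the 9 loci at 5 Gy and at all 9 at 0 Gy. The 9 loci had 47.0 kb under a peak at 5 Gy and 41.9 kb at 0 Gy, so the covered length at 5 Gy was 112.2% of that at 0 Gy. Over the whole lists the covered length at 5 Gy was 91.7% of that at 0 Gy. Peaks at 5 Gy numbered 86.5% of those at 0 Gy, with a 95% interval from 54.1 to 138.2 that covers counting error only and includes the 75.6% of the whole lists. The 5 Gy list thus had fewer peaks and somewhat more covered length at these genes, and 1 locus made most of the surplus: without TNFRSF10B the covered length at 5 Gy was 101.1% of that at 0 Gy. With only peaks that score at least 1000 the order of the doses turned, to 75.5%. That value rests on 5 peaks at 5 Gy and 7 at 0 Gy, and the ratio of the whole lists at such scores was not computed.

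**Figure D1:**
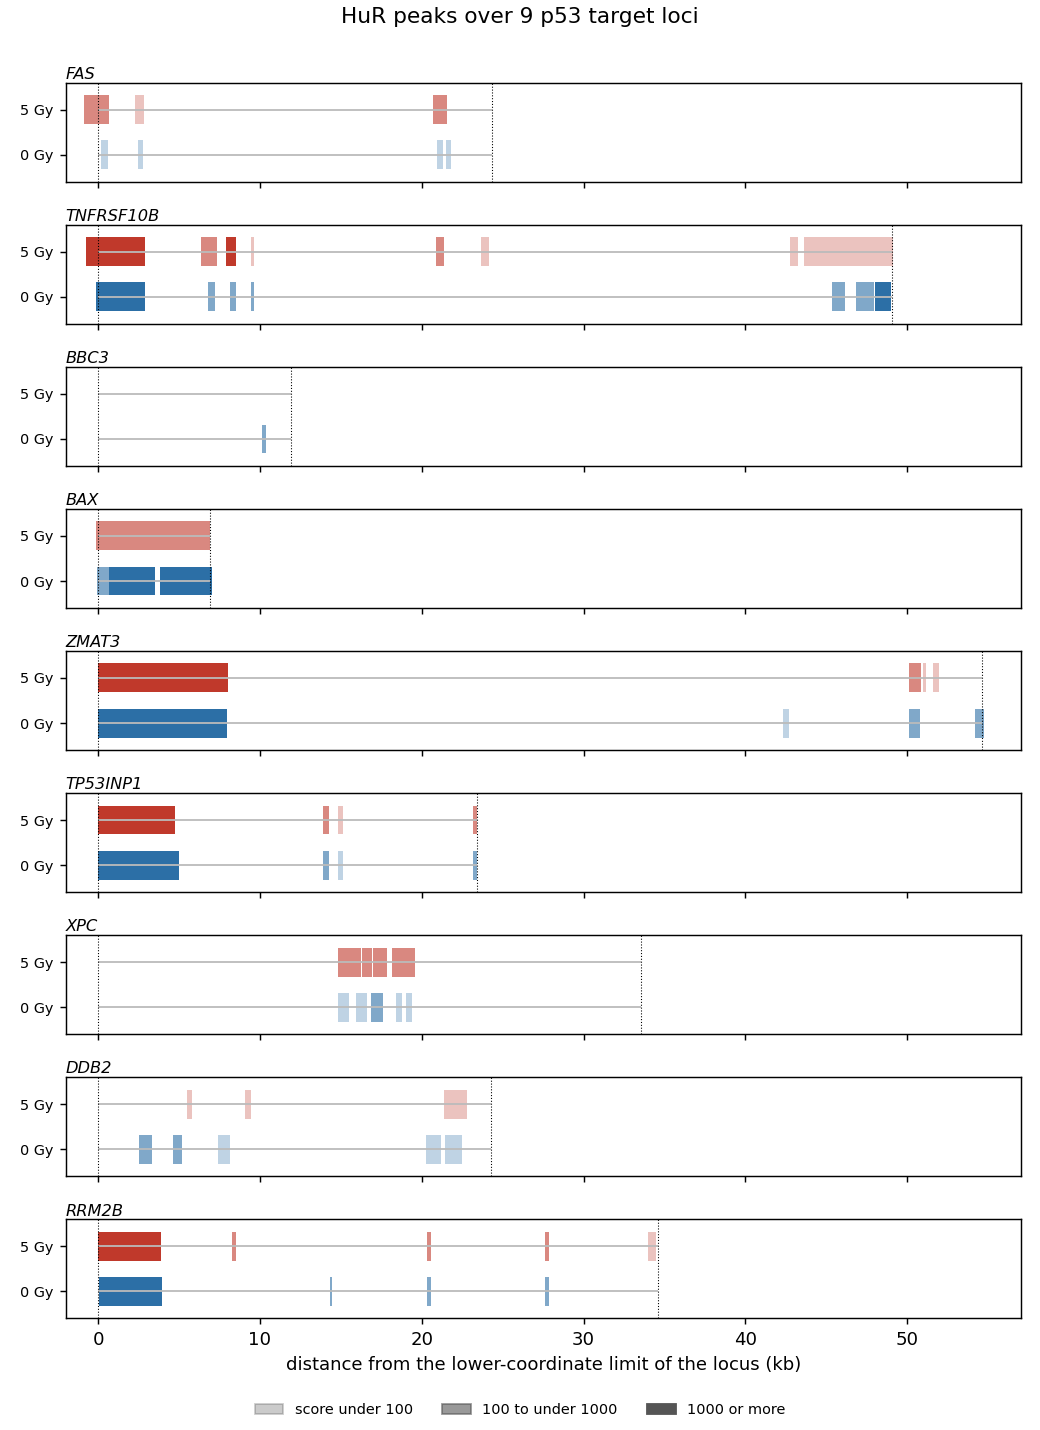
Peaks of the 5 Gy list (red, upper line) and the 0 Gy list (blue, lower line) over the 9 loci, with distance from the lower-coordinate limit of each locus in kb on the x axis, dotted lines at the limits and darker bars for higher scores. TNFRSF10B, ZMAT3, TP53INP1 and RRM2B have a long, dark peak at the lower-coordinate end at both doses, BAX is covered almost from end to end, XPC has its peaks in the middle, and BBC3 has 1 peak at 0 Gy and none at 5 Gy.

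Most of the covered sequence was common to both doses. A length of 36.7 kb lay under a peak at both doses, which is 78.1% of the 5 Gy length and 87.7% of the 0 Gy length. A further 10.3 kb was covered at 5 Gy only and 5.15 kb at 0 Gy only. Shares of length were not computed over the whole lists, so whether these loci differ from the rest in this is not known. Of the 32 peaks at 5 Gy, 9 had no overlapping peak at 0 Gy, against 27.0% of the whole 5 Gy list. Of the 37 peaks at 0 Gy, 8 had no overlapping peak at 5 Gy, against 41.9% of the whole 0 Gy list. The Wilson 95% intervals of the shared percentage were 54.6 to 84.4 at 5 Gy and 62.8 to 88.6 at 0 Gy, and the second lies above the 58.1% of the whole list. Peaks of 1 locus lie on the same transcript, so these intervals are too narrow to the extent that its peaks go together. Scores under 150 were given to all 9 unmatched peaks at 5 Gy and to 6 of the 8 at 0 Gy. The same share among the unmatched peaks of the whole lists was not computed, so this is not shown to be a trait of these loci. Scores of 150 or more were given to 14 of the 32 peaks at 5 Gy, against 48.5% over the whole list, and to 17 of the 37 at 0 Gy, against 46.5% over the whole list.

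**Figure D2:**
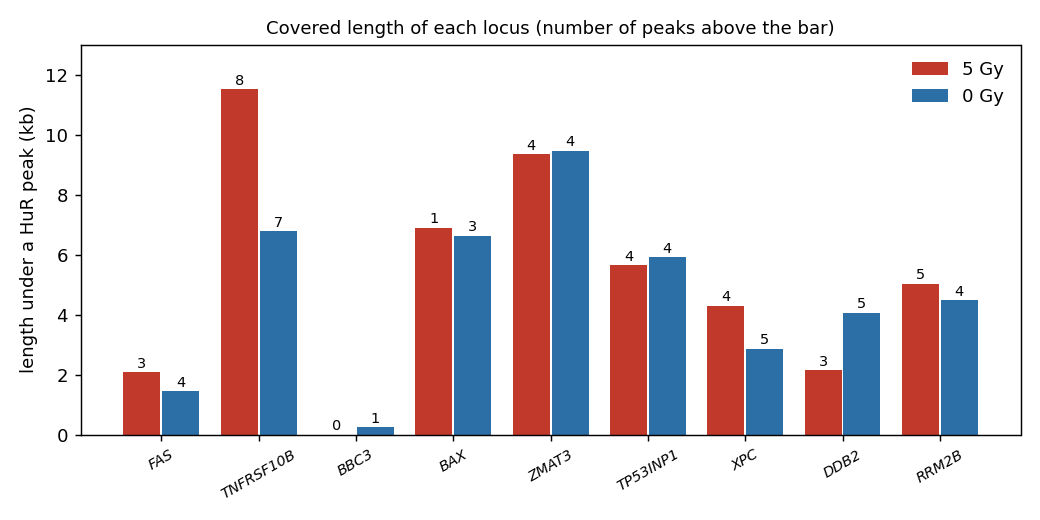
Length under a HuR peak in kb for each locus at 5 Gy (red) and 0 Gy (blue), 1 list per dose and therefore no error bars, with the number of peaks above each bar. TNFRSF10B and XPC were covered over a greater length at 5 Gy and DDB2 over a greater length at 0 Gy, while BAX, ZMAT3 and TP53INP1 had nearly equal bars.

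The covered length was compared with that of 30 kb tiles of the genome that had at least 1 kb covered at either dose, a set that holds the spread of such ratios but matches neither the length nor the limits of a gene. Of 10379 tiles, 12.1% had at least 1.5-fold more covered length at 5 Gy and 22.7% at least 1.5-fold less. Of the 8 loci with at least 1 kb covered, 2 were past 1.5-fold upward (TNFRSF10B at 1.70 and XPC, barely, at 1.504) and 1 was past it downward (DDB2 at 0.53). These 3 of 8 stand beside 34.8% of the tiles in either direction. FAS, with a ratio of 1.44, was just inside the threshold. With limits extended by 5 kb, XPC and DDB2 were inside the threshold and FAS past it, which left 2 loci upward (FAS and TNFRSF10B) and none downward. RRM2B had 1.12, BAX 1.04, ZMAT3 0.99 and TP53INP1 0.96, so 3 loci differed by under 1.1-fold. The median tile had a ratio of 0.98, with quartiles of 0.76 and 1.13.

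**Figure D3:**
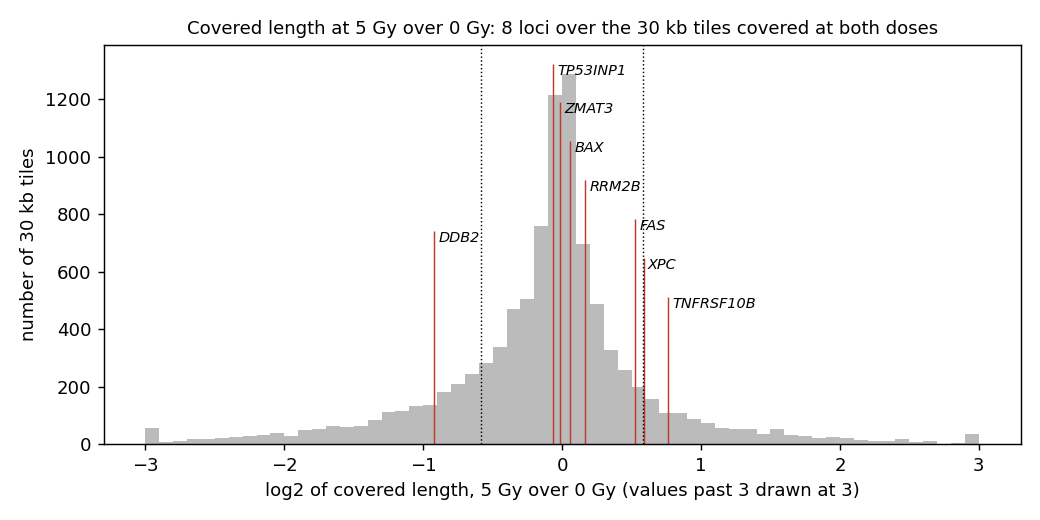
Histogram of the log2 ratio of covered length, 5 Gy over 0 Gy, over the 9651 tiles of 30 kb covered at both doses, with red lines at the 8 loci that have peaks at both doses and dotted lines at 1.5-fold either way. TNFRSF10B lies past the upper line, XPC on it, DDB2 past the lower line, and the other 5 loci between them.

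FAS and TNFRSF10B encode death receptors, cell-surface proteins that start apoptosis when their ligands, FAS ligand and TRAIL, bind. FAS (chromosome 10, 90751200 to 90775542) had weak peaks. At 5 Gy its 3 peaks scored 326.2, 62.13 and 137.09, and at 0 Gy its 4 peaks scored 77.09, 60.35, 86.07 and 69.87. The scores are the authors' peak scores, whose lowest value, 60.01 at 5 Gy and 60 at 0 Gy, equals 10 times the negative log10 of 1e-06. The score is therefore read here as a transformed p-value of a pile-up against its background. Such a value depends on read number and depth as well as on enrichment, so a higher score does not by itself show stronger enrichment.

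The first FAS peak at 5 Gy ran from 90750317 to 90751899 (1583 bp), and the 0 Gy peak inside it from 90751389 to 90751812 (424 bp). The 5 Gy peak began below the lower limit of the locus. ACTA2, the smooth muscle actin gene, and the antisense gene FAS-AS1 overlap FAS in the RefSeq table. Where they overlap it was not placed on the peaks. The lists hold no strand, so RNA of these genes was not separated from that of FAS at any peak. Near the upper end, the 5 Gy peak from 90771887 to 90772750 (864 bp) lay over 2 separate peaks of the 0 Gy list, of 350 and 344 bp. In all, 2078 bp of FAS was covered at 5 Gy and 1444 bp at 0 Gy, and each peak of either dose touched one of the other.

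TNFRSF10B (chromosome 8, 22877648 to 22926692) had 11515 bp under 8 peaks at 5 Gy and 6774 bp under 7 peaks at 0 Gy. Its strongest peak lay at the lower-coordinate end, which is the 3′ end of the gene because TNFRSF10B is read from the minus strand. At 5 Gy it ran from 22876914 to 22880557 (3644 bp), at 0 Gy from 22877525 to 22880520 (2996 bp), and it scored 3100 at both doses. Many peaks are tied at 3100 in the lists as deposited, so an equal score does not show equal strength. A few peaks score above it, none of them at these loci, and what those scores mean is not stated in the sources used here. At 5 Gy, 5.72% of the whole list scored 3100 or more, and at 0 Gy 5.35% did. Among the members such scores were given to 3 of 32 at 5 Gy and to 2 of 37 at 0 Gy.

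Within 10 kb of that end, TNFRSF10B had a row of 3 short peaks at both doses whose scores did not differ in 1 direction. The peak of 1014 bp at 5 Gy and 442 bp at 0 Gy scored 493.56 at 5 Gy and 232.02 at 0 Gy. The peak of 596 bp at 5 Gy and 353 bp at 0 Gy scored 1085.81 at 5 Gy and 729.17 at 0 Gy. The peak of 171 bp at 5 Gy and 185 bp at 0 Gy scored 70.1 at 5 Gy and 484.93 at 0 Gy. The first pair was higher in the 5 Gy list, as was the second, and the third was lower.

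At its start, TNFRSF10B had a 5 Gy peak of 5482 bp (22921297 to 22926778) over 3 peaks of the 0 Gy list with a summed length of 2921 bp. The long 5 Gy peak scored 82.63, whereas the 3 peaks at 0 Gy scored 100.52, 330.36 and 2011.29. Among the 596 peaks of at least 5 kb in the 5 Gy list, 8 scored under 100 (1.34%), and this was one of them. Without this peak the covered length of the 9 loci at 5 Gy was 99.3% of that at 0 Gy, so the surplus at 5 Gy rested on it. When only peaks that score at least 100 were kept, the covered length of TNFRSF10B at 5 Gy was 74.2% of that at 0 Gy, against 170.0% with all peaks. RHOBTB2 and the antisense TNFRSF10B-AS1 overlap TNFRSF10B in the RefSeq table, and their RNA was not separated from it at any peak. This includes the strongest peak at the other end, which began below the lower limit of the locus at both doses. The 3 further 5 Gy peaks without a match at 0 Gy scored 129.2, 93.09 and 99.54.

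BBC3 and BAX act at the mitochondrion. BBC3 encodes PUMA, a BH3-only protein that frees the pore formers, and BAX is one of those pore formers. BBC3 (chromosome 19, 47724079 to 47736023) had no peak at 5 Gy and 1 peak of 244 bp at 0 Gy, from 47734213 to 47734456 with a score of 130.27. The nearest 5 Gy peak lay 44.5 kb away. The absence of a peak means that no pile-up passed the caller's threshold, not that no RNA was recovered.

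BAX (chromosome 19, 49458117 to 49465055) was the most completely covered of the 9 loci, with 6905 of 6939 bp (99.5%) under a peak at 5 Gy and 6624 bp (95.5%) at 0 Gy. At 5 Gy it was 1 peak of 7022 bp, from 49458000 to 49465021, that scored 884.26. At 0 Gy the same stretch was called as 3 peaks of 741, 2817 and 3211 bp that scored 136.75, 1356.3 and 1574.39. Nearly the whole locus was thus covered at both doses, and the lists differed in where the call was broken. The score of the single 5 Gy peak was below those of the larger pair of 0 Gy peaks. No other gene overlaps BAX in the RefSeq table.

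Peaks that lay over at least 2 peaks of the other dose were 6 of 32 at 5 Gy (FAS, TNFRSF10B, BAX and 3 at XPC) and 2 of 37 at 0 Gy (both at XPC). In the whole lists they made up 9.28% at 5 Gy and 4.79% at 0 Gy. Peaks over at least 3 peaks of the other dose made up 1.40% of the 5 Gy list, and the TNFRSF10B and BAX peaks were among them.

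ZMAT3 and TP53INP1 encode regulators that are induced by p53. ZMAT3 is a zinc-finger protein that itself binds RNA, including AU-rich stretches, and TP53INP1 is a stress protein that takes part in p53-dependent death and autophagy. ZMAT3 (chromosome 3, 178735011 to 178789656) carried the longest peak among the members. It ran from 178735025 to 178743036 (8012 bp, score 2885.95) at 5 Gy and from 178734998 to 178742985 (7988 bp, score 2231.33) at 0 Gy. Its edges differed between the doses by 27 and 51 bp. ZMAT3 is read from the minus strand, so this peak marks the last part of the gene, and the last 25% of ZMAT3 held 85.7% of its covered length at 5 Gy and 84.3% at 0 Gy.

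The second ZMAT3 pair lay near the 5′ end and scored 318.85 at 5 Gy (748 bp) and 225.04 at 0 Gy (661 bp). At the start of the gene, a 0 Gy peak of 593 bp (178789182 to 178789774, score 182.42) had no match at 5 Gy, where the nearest peak was 2.21 kb away. ZMAT3 as a whole was covered over 9346 bp at 5 Gy and 9460 bp at 0 Gy, and the lists had 4 peaks each.

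TP53INP1 (chromosome 8, 95938200 to 95961615) was the only one of the 9 loci where each peak paired with 1 peak of the other dose, 4 at 5 Gy and 4 at 0 Gy. The long peak at its 3′ end, the lower-coordinate end of this minus-strand gene, spanned 4798 bp at 5 Gy (95938173 to 95942970) and 4996 bp at 0 Gy (95938184 to 95943179). It scored 3100 at both doses. The peak at the start of the gene scored 252.37 at 5 Gy and 126.96 at 0 Gy, and those in the middle scored 162.85 and 66.83 at 5 Gy, against 178.38 and 70.04 at 0 Gy. Peaks of the other dose lay over 99.4% of its covered length at 5 Gy and 95.1% at 0 Gy. NDUFAF6 overlaps TP53INP1 in the RefSeq table.

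XPC and DDB2 recognise DNA damage in nucleotide excision repair. XPC opens repair of lesions across the genome, and DDB2 is a subunit of the UV-damaged DNA-binding complex that hands lesions to it. XPC (chromosome 3, 14186647 to 14220172) had no peak at either end of the gene. Its peaks, 4 at 5 Gy and 5 at 0 Gy, formed 1 block between 44.2% and 58.5% of the way from the lower to the upper limit. At 5 Gy the peaks were 1435, 620, 814 and 1427 bp long and scored 252.53, 109, 120.62 and 348.18. At 0 Gy they were 685, 725, 758, 375 and 314 bp long and scored 93.26, 77.4, 146.99, 93.15 and 87.22.

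The XPC block was more filled at 5 Gy, with 4296 bp covered at 5 Gy and 2857 bp at 0 Gy. Every XPC peak of either list touched a peak of the other, and 94.9% of the length covered at 0 Gy was also covered at 5 Gy. With only peaks of a score of at least 100, all 4 peaks at 5 Gy and 1 at 0 Gy were left, covering 4296 bp at 5 Gy and 758 bp at 0 Gy. The antisense gene XPC-AS1 overlaps XPC in the RefSeq table, and without strand its RNA cannot be told apart from that of XPC.

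DDB2 (chromosome 11, 47236493 to 47260769) had weak peaks and, of the loci covered at both doses, the smallest share of common sequence between the lists. Its 3 peaks at 5 Gy scored 90.49, 68.16 and 87.58, and its 5 peaks at 0 Gy scored 129.82, 109.48, 91.42, 70.08 and 68.52. They covered 2146 bp at 5 Gy and 4063 bp at 0 Gy, of which 1011 bp was shared. The shared stretch lay near the 3′ end of this plus-strand gene, where the 5 Gy peak ran from 47257865 to 47259305 (1441 bp) around the 0 Gy peak from 47257941 to 47258951. The other 2 peaks at 5 Gy and 4 at 0 Gy had no match. The nearest peaks of the other dose were 0.344 and 0.924 kb away for the 5 Gy peaks. For the 0 Gy peaks they were from 0.169 to 2.19 kb away, farthest for the peak that scored 129.82. No DDB2 peak at 5 Gy reached a score of 100.

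RRM2B encodes p53R2, the subunit of ribonucleotide reductase that supplies nucleotides for repair outside S phase. RRM2B (chromosome 8, 103216729 to 103251346) had a long peak at its lower-coordinate end, which is the 3′ end of this minus-strand gene. It ran from 103216741 to 103220596 (3856 bp, score 3100) at 5 Gy and from 103216764 to 103220667 (3904 bp, score 1680.87) at 0 Gy. The peaks nearly coincided, and their edges differed by 23 and 71 bp. Of the 2 short pairs inside the gene, 1 scored 112.78 at 5 Gy and 305.09 at 0 Gy and the other 467.11 at 5 Gy and 626.76 at 0 Gy. The score was thus higher in the 5 Gy list at the 3′ end and lower inside the gene.

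RRM2B had 5 peaks over 5037 bp at 5 Gy and 4 peaks over 4483 bp at 0 Gy. A 0 Gy peak of 167 bp (103231029 to 103231195, score 228.97) had no match at 5 Gy, where the nearest peak was 5.78 kb away. The 2 unmatched peaks at 5 Gy scored 138.15 and 76.44. No other gene overlaps RRM2B in the RefSeq table.

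**Figure D4:**
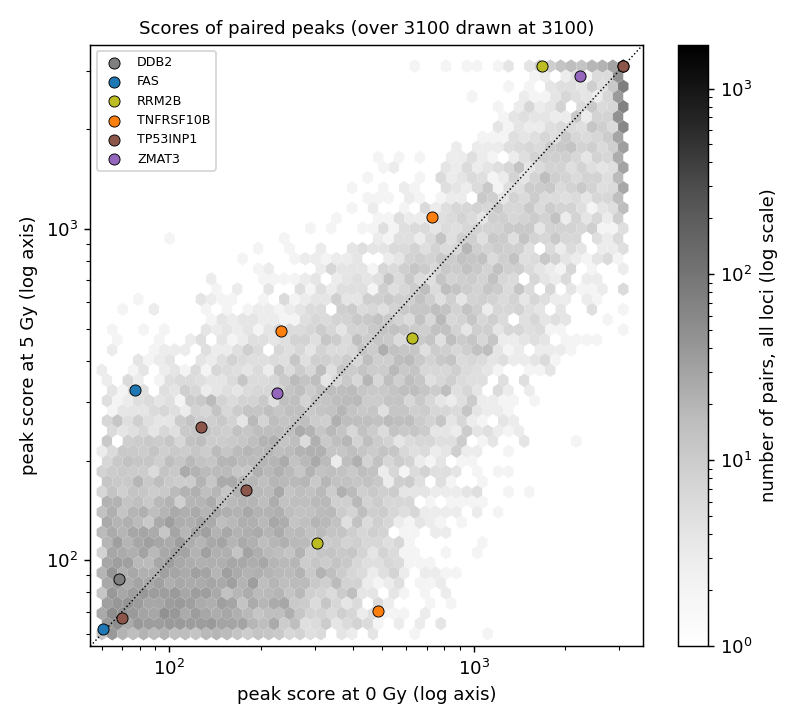
Score at 5 Gy (y axis) against score at 0 Gy (x axis), both on log axes, for the 16 peak pairs of the members (coloured by gene) over all 19750 pairs of the lists (grey, darker for more pairs), with equal scores on the dotted line. Member pairs lie on both sides of the line, with FAS farthest above it and TNFRSF10B farthest below.

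Across 6 of the loci, 16 pairs were formed by a 5 Gy peak and a 0 Gy peak that overlapped each other and nothing else. The score was higher at 5 Gy in 9 pairs, lower in 5 and tied at 3100 in 2. Over all 19750 pairs it was higher at 5 Gy in 32.5%. The Wilson 95% interval of the members' share ran from 33.2% to 76.9%, which treats the pairs as independent although 4 of them belong to TNFRSF10B and another 4 to TP53INP1. Where 50% of each peak had to overlap, 7 of 14 pairs were higher at 5 Gy, against 30.5% of all such pairs. By score rank within each list it was 9 of 16, against 29.5%. With scores under 3000 at both doses, an alternative chosen after seeing the data, it was 8 of 13, against 36.1%. No interval was computed for these alternatives. In 11 of the 16 pairs the longer peak was that of 5 Gy, against 58.3% of all pairs. The largest gap upward was the first FAS pair, and the largest downward the third of the short TNFRSF10B pairs.

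At both doses, 4 of the 9 genes, TNFRSF10B, ZMAT3, TP53INP1 and RRM2B, had a peak of at least 2996 bp at the 3′ end. It reached no further into the locus than the last 25%. BAX also had a long peak at its 3′ end, of 7022 bp at 5 Gy and 3211 bp at 0 Gy, but it reached further into the locus. Counted at any position in a locus, at least 3 kb was reached by 6 of the 32 peaks at 5 Gy and 4 of the 37 at 0 Gy. Over the whole lists 5.74% did at 5 Gy and 4.15% at 0 Gy. The count at 5 Gy includes the BAX peak of 7022 bp and the peak of 5482 bp at the start of TNFRSF10B. The count at 0 Gy includes the BAX peak of 3211 bp. The 3′-end peak of TNFRSF10B at 0 Gy, with 2996 bp, was just under 3 kb. The 25% of the locus at its lower-coordinate end held, of the length covered in TP53INP1, 84.4% at 5 Gy and 84.2% at 0 Gy. For RRM2B these shares were 82.1% at 5 Gy and 87.1% at 0 Gy, and for TNFRSF10B they were 40.7% at 5 Gy and 56.9% at 0 Gy. For the plus-strand genes, the last 25% of the locus held 41.6% of what was covered in FAS at 5 Gy and 48.1% at 0 Gy, and in DDB2 67.1% at 5 Gy and 48.5% at 0 Gy. In BAX, which was covered almost throughout, it held 24.6% at 5 Gy and 26.2% at 0 Gy. The last 25% of XPC, a minus-strand gene, had no peak at either dose, and the single BBC3 peak at 0 Gy lay outside it as well. Which of these stretches are 3′ untranslated regions was not analysed here, because no annotation in the build of the lists was used.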

How the data were processed

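The files used were 2 peak lists, 1 per dose, deposited by the authors, with a chromosome, a start, an end, a name and a score per peak. Reads were trimmed with cutadapt 1.9.1 and aligned with Bowtie2 2.2.4 to hg19, per the submitters' processing notes. The peak names begin with MACS, and the caller's version is not given in the sources used here. The score is the authors' deposited score, and scores above 3100 were set to 3100 for comparisons. Starts were counted from 1, and other coordinates, unless marked GRCh38.p14, are hg19. Read depth of the 4 libraries is unknown, so no interval from reads was computed.

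Covered length, overlap (at least 1 bp) and pairs were computed in Python 3.11.15 with numpy 2.4.6 and pandas 2.3.3, and checked on simulated lists. Only the number of peaks of each whole list that overlap the other list was also checked against bedtools 2.31.1. Wilson intervals (95%) came from scipy 1.17.1. They cover counting error only and take each peak as independent of the others. Strands came from the RefSeq promoter table for 6 genes and from textbook knowledge for the others. RefSeq gene names served only to name overlapping genes, since that table is GRCh38. All 9 genes are named, with the highest-scoring and longest peaks of each and unmatched peaks scoring at least 150. Members and lists were chosen with earlier results of these data known, and the p53 search was chosen after the lists had been seen. Other p53 pathway genes and markers of the cell type were not analysed here, for want of an hg19 annotation. Alternatives were score minimums, overlap rules, locus limits, joining, tile sizes and leaving out each locus.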

Additional observations from a re-analysis of the deposited data

How the results depend on the processing

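Of 79 recomputed values, only some were covered lengths, and in 3 of those the order of the doses turned. The rest were of other kinds, so 3 of 79 does not measure how stable that order is. The covered length at 5 Gy as a percentage of 0 Gy (112.2%) was 75.5% at scores of at least 1000 and 99.3% without the long, low-scoring TNFRSF10B peak of the 5 Gy list, an alternative chosen after seeing the data. For TNFRSF10B alone it was 74.2% at scores of at least 100. Leaving out each locus in turn gave 101.1% (without TNFRSF10B) to 118.6% (without DDB2) for covered length, 80.0% to 91.2% for the number of peaks, and shared percentages of 67.9% to 75.9% at 5 Gy and 73.3% to 87.5% at 0 Gy. When 50% of each peak had to overlap, the shared percentages were 46.9% at 5 Gy and 40.5% at 0 Gy. Once peaks scoring under 100 were left out, 90% of the 5 Gy peaks and 79.2% of the 0 Gy peaks were shared. With all peaks and an overlap of 1 bp the shares were 71.9% at 5 Gy and 78.4% at 0 Gy. The order of the doses thus turned under both rules. Whole-list shares were not computed under either rule. Whether the 0 Gy share would still lie above that of the whole list is therefore not known. Of the 8 loci with at least 1 kb covered, 3 differed by 1.5-fold. None differed by 2-fold (22.3% of tiles did), and 4 differed by 1.5-fold when the ratio was divided by that of the whole lists (14.6% of tiles upward and 19.9% downward). With limits extended by 5 kb, an alternative chosen after seeing the data, 2 did, since XPC and DDB2 were lost and FAS was gained. For the 6 loci with a strand in the table, the last 25% of the locus held 48.5% of what was covered at 5 Gy and 50.1% at 0 Gy, and the last 10% held 28.5% at 5 Gy and 27.4% at 0 Gy, so the order of the doses turned. XPC, at 150.4% with all peaks, was at 566.8% at scores of at least 100. At that score FAS had no peak left at 0 Gy and DDB2 none at 5 Gy, so no ratio was formed. Tiles of 10 kb and 100 kb were at least 1.5-fold higher at 5 Gy in 13.7% and 9.8% and lower in 22.4% and 20.5%. The causes were not tested. No paired analysis was possible because no group holds more than 1 library. The unknown depth limits all comparisons of scores and lengths.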

Other observations

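Peaks just outside the locus limits were not counted above. Within 5 kb of a limit there were 2 such peaks at 5 Gy and 3 at 0 Gy. DDB2, the damage-recognition subunit, had 2 of them at 5 Gy below its lower limit, from 47234916 to 47235480 (score 64.1) and from 47235593 to 47236377 (score 225.77), and 1 at 0 Gy from 47234994 to 47235938 (score 223.91) that overlapped both. The DDB2 peak of 225.77 ended 116 bp from the limit and scored higher than any peak inside DDB2 at either dose. Above the upper limit of XPC there were 2 weak peaks at 0 Gy, with scores of 62.21 and 65.95, and none at 5 Gy. Which gene these flanking peaks belong to was not analysed here. With the limits extended by 5 kb, the covered length at 5 Gy was 69.8% of that at 0 Gy for DDB2, 120.5% for XPC and 205.1% for FAS, whose first 5 Gy peak extends below its lower limit.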
